A study of Mus musculus with 48 samples.

Results

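The core circadian clock genes Arntl, Clock, Per1, Per2, Per3, Cry1, Cry2, Nr1d1, Nr1d2 and Dbp were followed in mouse liver at a single time of day. Their probes were taken by the gene name in the scanner files, which gave 25 of 56605 probes and 10 of 37074 genes on the array. After a filter on dim probes, 23 of these 25 probes and all 10 genes were left, among 30794 probes and 20487 genes in all. Each gene was read from its brightest probe. Liver RNA of 48 male mice was hybridised to 48 one-colour Agilent arrays, 1 mouse per array and 6 mice in each of 8 groups.

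The mice carried loxP-flanked alleles of p110α, the catalytic subunit of a class I PI3-kinase that acts downstream of the insulin receptor, with (p110α hep-/-) or without (p110α hep+/+) an albumin-Cre transgene. Albumin-Cre is used to delete genes in hepatocytes, p110α was not measured by cell type here, and the hep+/+ controls had the floxed alleles but no Cre. From 12 weeks of age both genotypes ate a control diet (CTRL) or a high-fat diet with 60% of calories from fat (HFD) for 12 weeks. Within each genotype and diet, mice either ate freely (fed) or had no food for 24 h starting at ZT16 (fasted), where ZT counts hours from lights on. Livers of fed and fasted mice were taken at ZT16, in the dark phase, when mice normally eat. With 1 time point, a shift in the phase of a rhythm, a change in its amplitude and a change in its mean level cannot be told apart.

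In the mammalian clock, the proteins of Arntl (also called BMAL1) and Clock bind E-box sequences as a pair and activate the Per and Cry genes, whose proteins return to the nucleus and repress that same pair. The same pair also activates Nr1d1 and Nr1d2, nuclear receptors (REV-ERBα and REV-ERBβ) that repress Arntl through elements shared with the activating ROR receptors, and Dbp, a transcription factor that carries the rhythm to other genes through D-boxes. In liver, feeding time, glucocorticoids and body temperature are known to act on these genes beside the signals from the brain's central clock.

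Promoter sequence is shown because several of these genes moved together and because the elements named above tie them to each other. RefSeq windows from 250 bases before to 50 bases after a start site (GRCm38.p6) were at hand for 9 of the 10 genes, 13 windows in all, with none for Per2. Each window was searched on both strands for the E-box CACGTG, the E-prime-box CACGTT, the D-box TTANGTAA and the ROR element (AANTN followed directly by GGTCA). The E-box was in 2 of the 13 windows and in 7.15% of the 32851 RefSeq windows, the E-prime-box in 3 and 4.68%, the D-box in 1 and 2.32%, and the ROR element in 1 and 0.606%. The matching stretches follow 5′ to 3′ along the gene's own strand, with the matches in capitals, and none of the printed matches overlapped another.
Arntl (chr7:113207528-113207557, plus strand, ROR element): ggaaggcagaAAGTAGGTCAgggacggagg
Per1 (chr11:69098743-69098828, plus strand, E-box): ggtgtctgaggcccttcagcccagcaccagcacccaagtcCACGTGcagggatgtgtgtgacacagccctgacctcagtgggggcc
Per3 (chr4:151044776-151044910, minus strand, D-box at both places): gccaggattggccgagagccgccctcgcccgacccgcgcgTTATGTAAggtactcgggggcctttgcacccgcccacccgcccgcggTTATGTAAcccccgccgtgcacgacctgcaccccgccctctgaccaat
Cry1 (chr10:85185069-85185173, minus strand, E-prime-box read from the other strand, then E-box): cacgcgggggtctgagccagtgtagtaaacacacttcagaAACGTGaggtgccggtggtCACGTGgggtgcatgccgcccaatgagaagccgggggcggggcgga
Cry2 (chr2:92434190-92434275, minus strand, E-prime-box read from the other strand): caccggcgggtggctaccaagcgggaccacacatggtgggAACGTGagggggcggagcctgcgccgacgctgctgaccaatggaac
Nr1d1 (chr11:98775360-98775445, minus strand, E-prime-box read from the other strand): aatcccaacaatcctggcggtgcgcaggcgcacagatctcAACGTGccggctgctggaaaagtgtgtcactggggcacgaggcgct
The windows of Dbp, Nr1d2 and Clock, and the other windows of Arntl and Per1, held none of the letters searched for, which says nothing about elements elsewhere in those genes.

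On the arrays, between 50.1% and 57.4% of probes were well above background, no spot was saturated, and the number of arrays limits the precision. Array weights, which count an array less when it departs from its group, ran from 0.354 to 1.72. The array with the lowest weight, hep-/- HFD fed replicate 3, correlated on average at 0.989 with the other arrays of its group, which correlated at 0.995 among themselves. It correlated slightly better with another group, hep-/- CTRL fed (0.991), than with its own, whereas the rest of its group correlated at 0.991 with hep-/- CTRL fed arrays. None of the 30 calls on the clock genes described here was lost without it, and the fasting differences in hep-/- HFD mice were then 1.06 for Nr1d2, 1.48 for Dbp, 0.80 for Nr1d1, 0.83 for Per1 and 0.26 for Cry2. The Pik3ca probe (chr3:32364747-32364806, mm9), which reports p110α mRNA, was not lower in hep-/- mice (log2 difference 0.39 on CTRL and 0.58 on HFD in fed mice), and since it could not be told whether it lies in the floxed exons, it checks nothing. The summed level of 4 hepatocyte markers (Alb, Apoa1, Ttr and Serpinc1) had medians from 19.95 to 20.04 on the log2 scale in the 8 groups, a sum to which Alb (18.82 to 18.95 over the arrays) adds the most. Quantile normalization gives every array the same set of values. A sum of such bright probes is thereby held nearly level, and it does not measure hepatocyte content. Taken singly, Apoa1 was called higher on fasting in all settings but hep+/+ CTRL (0.32 to 0.35) and in hep-/- CTRL fasted livers (0.35). Ttr was called lower on fasting on CTRL diet (-0.14 in hep+/+ and -0.30 in hep-/- mice), higher on HFD in fasted mice (0.17 and 0.24), and lower in hep-/- livers in CTRL fasted (-0.25), HFD fed (-0.18) and HFD fasted mice (-0.18). The part of these markers in the clock gene differences was not tested. The RNA came from whole liver, so fewer cells of a type and less RNA per cell cannot be told apart, and p-values measure the spread between mice.

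Across the 8 groups, Dbp spanned the widest range of group means of the 10 genes, 1.58 log2 units from 12.82 in hep+/+ CTRL fasted to 11.24 in hep-/- HFD fed livers. Nr1d1 followed with 1.21, Per1 with 1.12 and Nr1d2 with 1.10, whereas Cry2 spanned 0.22. The pooled SD among mice of a group was 0.59 for Dbp, 0.47 for Arntl and 0.40 for Per1, against 0.12 for Cry2, 0.19 for Clock and Per2, 0.21 for Cry1, 0.24 for Nr1d2, 0.29 for Per3 and 0.34 for Nr1d1. Set against that spread, the order of the groups was clearest for Nr1d2: the 4 fasted groups stood above the 4 fed groups, and 2 of the 7 gaps between neighbouring means were wider than 1 pooled SD. For Arntl, Clock, Per1, Per3, Cry1, Nr1d1 and Dbp no neighbouring groups differed by more than 1 pooled SD, and for Per2 and Cry2 only 1 pair did. The fasted groups also held the 4 highest means of Nr1d1, Per1 and Dbp.

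**Figure D1:**
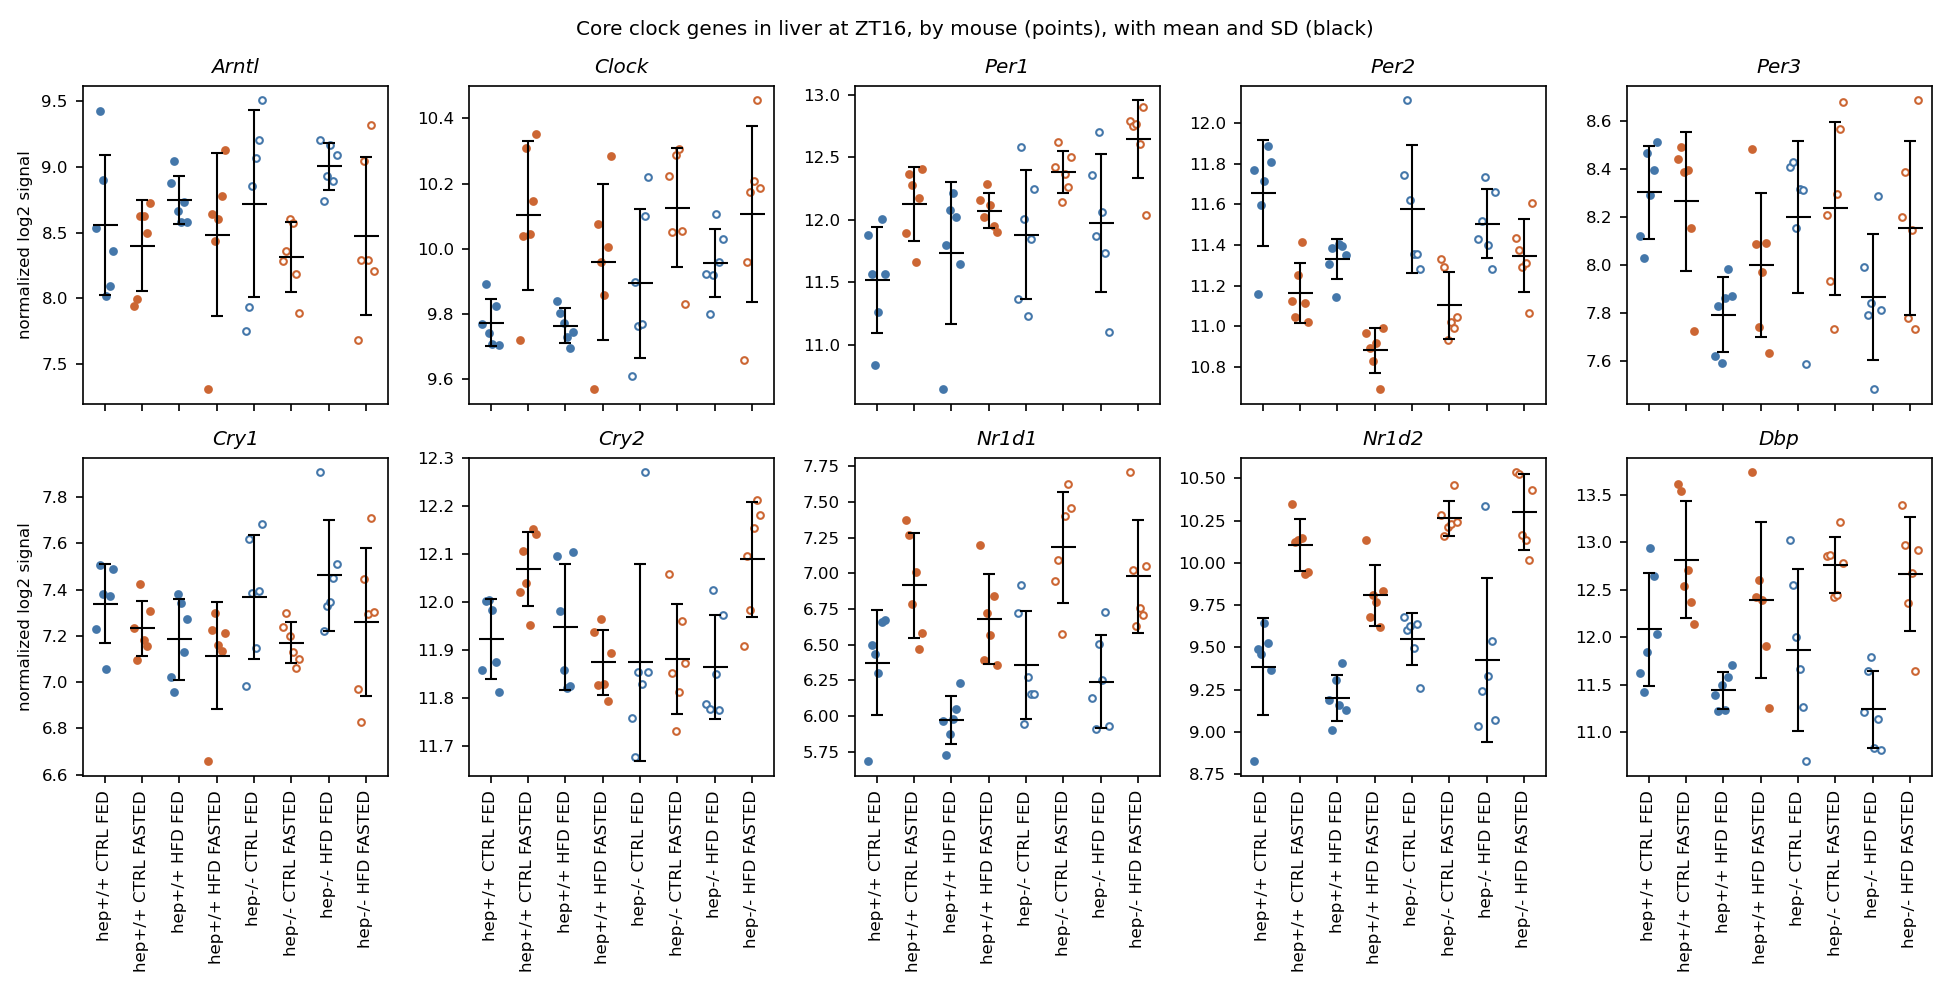
Normalized log2 signal of the 10 core clock genes in each mouse (points), with the mean and SD of the 6 mice per group in black; blue is fed, orange fasted, filled p110α hep+/+ and open p110α hep-/-. The 4 fasted groups of Nr1d2 have means from 9.81 to 10.30 and its 4 fed groups from 9.20 to 9.55, while single mice run from 7.31 to 9.50 for Arntl, whose fed and fasted values overlap within each genotype and diet.

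Whether fasting changed the clock genes at ZT16 was tested within each genotype and diet. Fasting raised Nr1d1 and Nr1d2 in all 4 settings and Dbp in 3, raised Per1 and Clock in 2 each and Cry2 in 1, and lowered Per2 in 3. Arntl, Per3 and Cry1 passed the test in none. In hep+/+ mice, 5 of 10 genes passed on CTRL, where 32.5% of all 20487 genes did, and 4 of 10 on HFD, against 28.4%. In hep-/- mice it was 5 of 10 on CTRL, against 35.4%, and 5 of 10 on HFD, against 28.5%. Of the 19 calls in 40 tests, 16 were increases (16%, 13.8%, 16.4% and 13.9% of all genes rose in these 4 comparisons) and 3 were decreases (16.5%, 14.7%, 19.1% and 14.6% fell). Calls with a change over 1.5-fold numbered 2, 3, 3 and 4 of 10 genes, against 5.45%, 4.71%, 7.07% and 5.9% of all genes. Fed and fasted values did not overlap for 1, 3, 1 and 0 of the 10 genes, as for 11.8%, 10.9%, 15.6% and 8.44% of all genes. A call here is an adjusted p of at most 0.05 in limma, Benjamini-Hochberg over all probes.

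Among the activators, Clock rose slightly in fasted mice on CTRL diet. Its log2 signal ran from 9.71 to 9.89 (median 9.76) in fed and from 9.72 to 10.35 (median 10.10) in fasted hep+/+ CTRL mice, a difference of 0.36 ± 0.10 (SE, adjusted p = 0.00372). In hep-/- CTRL mice it ran from 9.61 to 10.22 (median 9.83) fed and from 9.83 to 10.31 (median 10.14) fasted, a difference of 0.29 ± 0.10 (adjusted p = 0.0182). The groups overlapped in both settings, and 5 of 6 fasted mice lay above the fed median in each. On HFD the differences were 0.20 in hep+/+ (adjusted p = 0.118) and 0.15 in hep-/- mice (adjusted p = 0.333). Of 2 further Clock probes, 1 was called higher in all 4 settings, by 0.27 to 0.33, and 1 in hep+/+ CTRL mice only. The hep-/- CTRL call was lost without the filter on dim probes (adjusted p = 0.0753), without array weights (adjusted p = 0.0955) and with the median over probes (0.08, adjusted p = 0.658). It was also lost without hep-/- CTRL fed replicate 1 or 3 or fasted replicate 3 or 4 (adjusted p 0.0528 to 0.0729), and the hep+/+ HFD difference became a call without fasted replicate 1 (0.26, adjusted p = 0.0371).

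Arntl, the partner of Clock, was lower in the mean of the fasted group in all 4 settings, by 0.09 to 0.51, and passed in none (adjusted p 0.141 to 0.812). Its fed and fasted values overlapped throughout, for example from 8.74 to 9.20 fed and from 7.68 to 9.32 fasted in hep-/- HFD mice. Of the 2 other Arntl probes, 1 was called lower in hep-/- CTRL (-0.44, adjusted p = 0.0173) and 1 in hep-/- HFD mice (-0.50, adjusted p = 0.0492), and without hep-/- CTRL fed replicate 1 the main probe passed too (-0.60, adjusted p = 0.0415).

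The period genes, repressors of the activator pair, did not move as a group. Per1, a period gene that also answers directly to glucocorticoids, rose in hep+/+ CTRL mice, from a median of 11.57 (10.84 to 12.01) fed to 12.22 (11.66 to 12.40) fasted, by 0.64 ± 0.21 (1.56-fold, adjusted p = 0.0150). It also rose in hep-/- HFD mice, from a median of 11.96 (11.10 to 12.70) to 12.76 (12.04 to 12.90), by 0.78 ± 0.23 (1.72-fold, adjusted p = 0.00949). All 6 fasted mice lay above the fed median in both settings, although the groups overlapped. The difference was 0.51 in hep-/- CTRL mice (adjusted p = 0.0567) and 0.31 in hep+/+ HFD mice (adjusted p = 0.279). Without hep+/+ CTRL fed replicate 3 the hep+/+ CTRL difference was 0.44 and no longer passed (adjusted p = 0.118). The hep-/- CTRL difference passed without hep+/+ CTRL fed replicate 3, hep+/+ HFD fed replicate 1, hep-/- CTRL fed replicate 2 or 6, or hep-/- HFD fed replicate 6 (adjusted p 0.0282 to 0.0458).

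Per2 went the other way. In hep+/+ CTRL mice it fell from a median of 11.74 (11.16 to 11.89) fed to 11.12 (11.02 to 11.41) fasted, a log2 change of -0.52 ± 0.10 (adjusted p = 3.93e-05). In hep+/+ HFD mice it fell from 11.37 (11.15 to 11.40) to 10.90 (10.69 to 10.99), a change of -0.46 ± 0.09 (adjusted p = 0.000141). The groups did not overlap on HFD, as for 10.9% of all genes, and no fasted mouse of either setting lay above the fed median. In hep-/- CTRL mice the change was -0.45 ± 0.10 (adjusted p = 0.000298), from 11.49 (11.28 to 12.11) to 11.03 (10.93 to 11.33). In hep-/- HFD mice it was -0.13 ± 0.11 (95% interval -0.35 to 0.09, adjusted p = 0.409), with 11.28 to 11.74 fed and 11.07 to 11.61 fasted. The difference between the genotypes' fasting effects on HFD, 0.33 ± 0.14, did not pass (adjusted p = 0.206). These values come from the probe at chr1:93312595-93312654 (mm9). The other Per2 probe, at chr1:93336538-93336597 (mm9), showed no call in any of the 4 settings (log2 differences -0.04, -0.26, 0.04 and -0.01 in the same order), so the fall rests on 1 of 2 probes. With the median over probes it was -0.28 in hep+/+ and -0.21 in hep-/- CTRL mice.

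Per3, a period gene with the D-box pair printed above, differed by -0.07, 0.18, -0.03 and 0.28 between fasted and fed mice, with no call. Of the cryptochromes, the strongest repressors of the activator pair, Cry1 differed by -0.10, -0.07, -0.18 and -0.22, also with no call. Cry2 rose in hep-/- HFD mice, from a median of 11.82 (11.78 to 12.03) fed to 12.13 (11.91 to 12.21) fasted, by 0.25 ± 0.08 (adjusted p = 0.0121), and all 6 fasted mice lay above the fed median. In the other settings Cry2 differed by 0.15 (hep+/+ CTRL, adjusted p = 0.0849, and 0.0464 without hep-/- CTRL fed replicate 5), -0.08 and -0.01. The 2 other Cry2 probes gave 0.10 (adjusted p = 0.463) and 0.28 (adjusted p = 0.0416) in hep-/- HFD mice, and the call was lost with the median over probes (0.10, adjusted p = 0.483). The second of them was also called higher in hep-/- CTRL mice (0.24, adjusted p = 0.0455), where the brightest probe gave -0.01.

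The nuclear receptors gave the most regular response. In hep+/+ CTRL mice Nr1d2 rose from a median of 9.48 (8.83 to 9.64) fed to 10.13 (9.94 to 10.35) fasted, by 0.73 ± 0.11 (1.66-fold, adjusted p = 1.93e-06). In hep+/+ HFD mice it rose from 9.17 (9.01 to 9.41) to 9.79 (9.62 to 10.14), by 0.61 ± 0.11 (1.52-fold, adjusted p = 2.81e-05). Every fasted mouse of these settings lay above every fed mouse, as for 11.8% and 10.9% of all genes. In hep-/- CTRL mice Nr1d2 rose from 9.62 (9.26 to 9.68) to 10.23 (10.16 to 10.46), by 0.69 ± 0.11 (1.62-fold, adjusted p = 5.01e-06), again without overlap (15.6% of all genes). In hep-/- HFD mice it rose from 9.29 (9.03 to 10.34) to 10.30 (10.02 to 10.53), by 0.99 ± 0.13 (1.98-fold, adjusted p = 9.47e-08). Only 1 fed mouse overlapped there, the low-weight replicate 3 at 10.34, and without its array the difference was 1.06. Both other Nr1d2 probes were called higher in all 4 settings.

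Nr1d1, with the E-prime-box near its start site printed above, was raised in all 4 settings too. Its values ran from 5.68 to 6.67 (median 6.46) fed and from 6.47 to 7.37 (median 6.90) fasted in hep+/+ CTRL mice, and from 5.73 to 6.23 (median 5.97) fed and from 6.36 to 7.20 (median 6.64) fasted in hep+/+ HFD mice. The increases were 0.51 ± 0.18 (1.42-fold, adjusted p = 0.0300) and 0.66 ± 0.18 (1.58-fold, adjusted p = 0.00437). Only the HFD groups were free of overlap, and in both settings all 6 fasted mice lay above the fed median. In hep-/- mice the increases were 0.82 ± 0.19 on CTRL (adjusted p = 0.000547), from a median of 6.21 (5.94 to 6.92) to 7.25 (6.57 to 7.63), and 0.78 ± 0.21 on HFD (adjusted p = 0.00376), from 6.19 (5.91 to 6.73) to 6.89 (6.63 to 7.71). The gene has 1 probe on the array, and the size of its change depended on the signal used. Its group means were low, from 5.97 to 7.18, and the main values had no background subtracted. The size of its change is therefore not comparable with that of brighter genes. The 4 increases, in the order given, were 0.81, 1.12, 1.27 and 1.12 with the scanner's background-corrected signal scaled to the 75th percentile and 0.37, 0.48, 0.66 and 0.54 with normexp, all called. The hep+/+ CTRL call was lost without hep+/+ CTRL fed replicate 1 or 4 or fasted replicate 1, 2 or 4 (0.35 to 0.48, adjusted p 0.0521 to 0.155), and without the filter on dim probes (0.52, adjusted p = 0.0591).

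Dbp, the output factor, had the widest spread between mice and the largest difference. In hep-/- HFD mice it rose from a median of 11.17 (10.82 to 11.80) fed to 12.80 (11.65 to 13.38) fasted, by 1.46 ± 0.33 (2.75-fold, adjusted p = 0.000644). It rose by 0.98 ± 0.28 in hep+/+ HFD mice (1.97-fold, adjusted p = 0.00720), from 11.45 (11.23 to 11.71) to 12.41 (11.26 to 13.73). The groups overlapped in both, by a single fasted mouse among the fed values in each. In hep-/- CTRL mice the increase was 0.86 ± 0.30 (adjusted p = 0.0214), from 11.83 (10.70 to 13.03) to 12.81 (12.42 to 13.21). In hep+/+ CTRL mice the difference was 0.67 ± 0.29 (adjusted p = 0.0748), from 11.94 (11.42 to 12.94) to 12.62 (12.14 to 13.61). The other Dbp probe was called higher in all 4 settings, by 0.81 to 1.54. The hep-/- CTRL call was lost without hep-/- CTRL fed replicate 5 or 6 (adjusted p 0.0748 and 0.111), and the hep+/+ CTRL difference passed without hep+/+ CTRL fed replicate 4 or 5 or fasted replicate 5 or 6 (adjusted p 0.0364 to 0.0480).

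**Figure D2:**
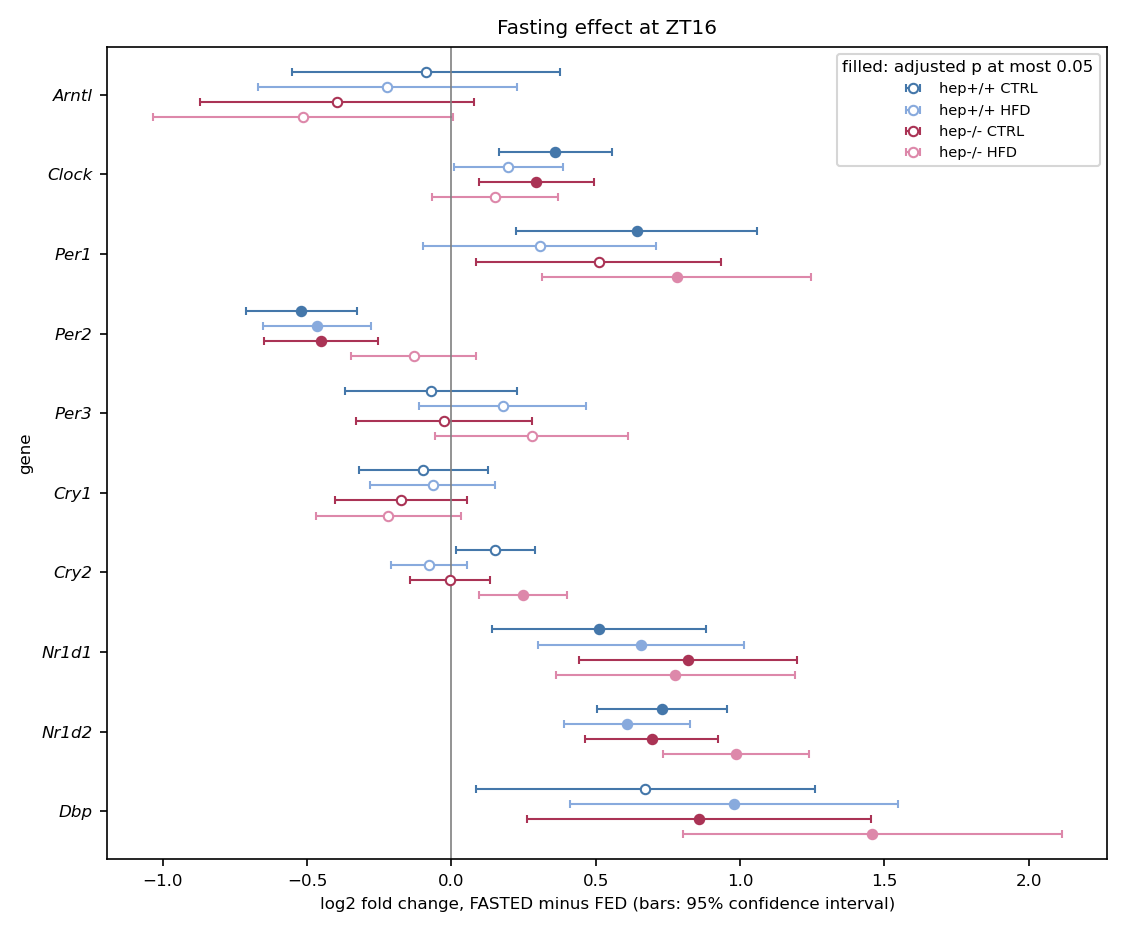
Fasting effect on each clock gene within each genotype and diet, as the log2 fold change of fasted over fed with its 95% confidence interval; filled points passed the test. Nr1d1 and Nr1d2 lie to the right of 0 with filled points in all 4 settings, and Per2 lies to the left of 0 with filled points in 3.

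The next comparison was of HFD with CTRL diet within each genotype and nutritional state. In hep+/+ mice Per2 was lower on HFD both fed and fasted, Per3 was lower in fed mice, and the brightest Cry2 probe was lower in fasted mice and another Cry2 probe in fed mice. In hep-/- mice none of the 10 genes passed in either state with limma, and 0 fed and 2 fasted differences had an unadjusted p under 0.05. In fed hep+/+ mice 2 of 10 genes passed, where 24% of all genes did (11.7% lower), and in fasted hep+/+ mice 2 of 10, against 15.9% (6.97% lower). In hep-/- mice the 0 of 10 stand beside 12.2% of all genes fed and 10.8% fasted.

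Per2 in fed hep+/+ mice was at a median of 11.74 (11.16 to 11.89) on CTRL and 11.37 (11.15 to 11.40) on HFD, a change of -0.35 ± 0.09 (adjusted p = 0.00571). In fasted hep+/+ mice it was at 11.12 (11.02 to 11.41) and 10.90 (10.69 to 10.99), a change of -0.29 ± 0.10 (adjusted p = 0.0305). Only the fasted groups were free of overlap, as for 5.86% of all genes, and no HFD mouse lay above the CTRL median in either state. The other Per2 probe gave -0.06 (adjusted p = 0.779) and -0.28 (adjusted p = 0.129), and the median over probes was -0.20 in fed mice. The fasted call was lost without hep+/+ CTRL fasted replicate 3 or 4 or hep+/+ HFD fasted replicate 3 or 5 (adjusted p 0.0572 to 0.0888), without the filter on dim probes (adjusted p = 0.0961) and without array weights (adjusted p = 0.0938).

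Per3 in fed hep+/+ mice ran from 8.03 to 8.51 (median 8.34) on CTRL and from 7.59 to 7.98 (median 7.84) on HFD, with no overlap, as for 9.51% of all genes. The change was -0.52 ± 0.15 (1.44-fold lower, adjusted p = 0.00718). In fed hep-/- mice Per3 differed by -0.31 ± 0.16 (adjusted p = 0.233), and the genotypes' diet effects were not shown to differ (0.21 ± 0.22, adjusted p = 0.671). The 2 other Per3 probes gave -0.25 (adjusted p = 0.223) and -0.15 (adjusted p = 0.148) in fed hep+/+ mice, and the call was lost with the median over probes (-0.26, adjusted p = 0.194).

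Cry2 in fasted hep+/+ mice ran from 11.95 to 12.15 (median 12.07) on CTRL and from 11.79 to 11.96 (median 11.86) on HFD, a change of -0.20 ± 0.07 (adjusted p = 0.0419). In fed hep+/+ mice this probe differed by 0.03 (adjusted p = 0.762), while the other 2 Cry2 probes gave -0.22 (adjusted p = 0.0414, a call) and -0.20 (adjusted p = 0.106). The fasted groups touched at 1 mouse each. There the 2 other Cry2 probes gave -0.12 (adjusted p = 0.355) and -0.13 (adjusted p = 0.343), and the call was lost under 6 of 13 alternatives, with the median over probes at -0.12 (adjusted p = 0.334). This call was lost without hep+/+ CTRL fasted replicate 2, 3, 5 or 6 or hep+/+ HFD fasted replicate 2, 4 or 5 (adjusted p 0.0542 to 0.101). In fasted hep-/- mice Cry2 was 0.21 ± 0.07 higher on HFD (adjusted p = 0.0524), and this difference passed without any 1 of 7 arrays, hep+/+ HFD fed replicates 4 and 6, hep-/- CTRL fed replicate 5, hep-/- CTRL fasted replicates 1 and 5, and hep-/- HFD fasted replicates 1 and 3 (adjusted p 0.0194 to 0.0477).

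Dbp had the largest diet differences in size, -0.64 ± 0.28 in fed hep+/+ (adjusted p = 0.102) and -0.63 ± 0.31 in fed hep-/- mice (adjusted p = 0.213), and did not pass. Nr1d2 differed by -0.30 ± 0.11 in fasted hep+/+ mice (adjusted p = 0.0579). Both other Nr1d2 probes were called lower there (-0.41, adjusted p = 0.0154, and -0.30, adjusted p = 0.0497), and the main probe passed without hep+/+ CTRL fed replicate 1, hep+/+ CTRL fasted replicate 5 or 6, hep+/+ HFD fasted replicate 1 or hep-/- HFD fed replicate 3 (adjusted p 0.0316 to 0.0499). Without hep+/+ CTRL fed replicate 1, Nr1d1 (-0.53, adjusted p = 0.0274) and Nr1d2 (-0.30, adjusted p = 0.0333) also passed in fed hep+/+ mice. Arntl, Clock, Per1 and Cry1 differed by -0.17 to 0.30 in the 4 diet comparisons, none with a call.

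The effect of deleting p110α in hepatocytes was tested within each diet and state. In fasted mice on HFD, Nr1d2, Per2, Per1 and Cry2 were higher in hep-/- than in hep+/+ livers, 4 of 10 genes, a share close to the 36.8% of all genes that passed in that comparison (19.1% higher). On CTRL diet 0 of 10 genes passed in fed mice, against 21.5% of all genes, and 1 of 10 in fasted mice, against 24.8% (12.3% lower). In fed mice on HFD it was 0 of 10, against 32.9%. Of the counts of 0, from limma, none had an unadjusted p under 0.05 in CTRL fed mice and 1 did in HFD fed mice (Cry1, 0.25 ± 0.11, adjusted p = 0.0972).

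Nr1d2 in fasted HFD mice ran from 9.62 to 10.14 (median 9.79) in hep+/+ and from 10.02 to 10.53 (median 10.30) in hep-/- livers, a difference of 0.52 ± 0.12 (1.43-fold, adjusted p = 0.000664). Per2 ran from 10.69 to 10.99 (median 10.90) in hep+/+ and from 11.07 to 11.61 (median 11.34) in hep-/- livers, a difference of 0.47 ± 0.10 (1.38-fold, adjusted p = 0.000352). The Per2 groups did not overlap, as for 14% of all genes, and all 6 hep-/- mice lay above the hep+/+ median for both genes. Both other Nr1d2 probes were called higher too (0.52 and 0.55), whereas the other Per2 probe gave 0.19 (adjusted p = 0.281).

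Per1 ran from 11.90 to 12.29 (median 12.07) in hep+/+ and from 12.04 to 12.90 (median 12.76) in hep-/- fasted HFD livers, a difference of 0.57 ± 0.22 (adjusted p = 0.0409). Only 5 of 6 hep-/- mice lay above the hep+/+ median, and the call was lost without any 1 of 9 arrays of these groups, hep+/+ replicates 1, 2, 4, 5 and 6 and hep-/- replicates 1, 2, 3 and 5 (adjusted p 0.0503 to 0.0837), without the filter on dim probes (adjusted p = 0.0605) and without removal of the washing batch (adjusted p = 0.0503). Cry2 ran from 11.79 to 11.96 (median 11.86) in hep+/+ and from 11.91 to 12.21 (median 12.13) in hep-/- livers, a difference of 0.21 ± 0.07 (adjusted p = 0.0183). It was lost without hep-/- HFD fasted replicate 5 or 6 (adjusted p 0.0513 and 0.0516), and the 2 other Cry2 probes gave 0.10 (adjusted p = 0.369) and 0.17 (adjusted p = 0.175). With the median over probes it was 0.10 and did not pass (adjusted p = 0.381).

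On CTRL diet the brightest Cry2 probe was lower in hep-/- livers. In fasted mice it ran from 11.95 to 12.15 (median 12.07) in hep+/+ and from 11.73 to 12.06 (median 11.86) in hep-/- livers, a difference of -0.19 ± 0.07 (adjusted p = 0.0304). No hep-/- mouse lay above the hep+/+ median. The call was lost without hep+/+ CTRL fasted replicate 5 or 6 or hep-/- CTRL fasted replicate 2, 3 or 4 (adjusted p 0.0590 to 0.130). The 2 other Cry2 probes gave -0.01 (adjusted p = 0.927) and 0.07 (adjusted p = 0.615) and the median over the probes gave -0.01, so this call rests on 1 of 3 probes, and it was lost under 5 of 13 alternatives.

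**Figure D3:**
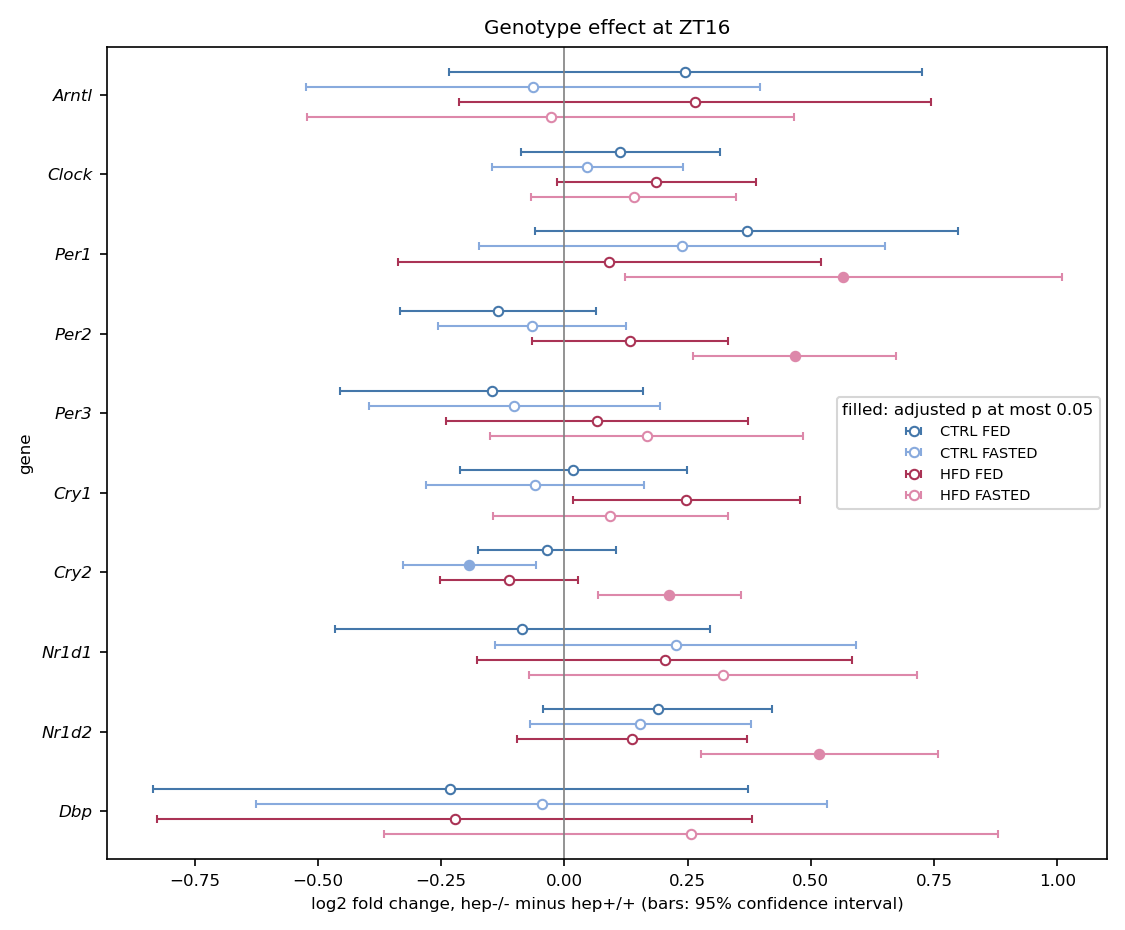
Genotype effect on each clock gene within each diet and nutritional state, as the log2 difference, p110α hep-/- minus p110α hep+/+, with its 95% confidence interval; filled points passed the test. Filled points are Per1, Per2, Cry2 and Nr1d2 in fasted HFD mice, to the right of 0, and Cry2 in fasted CTRL mice, to the left.

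Whether the effects themselves differed between groups was tested with 6 interaction contrasts, 60 tests for the 10 genes. In fasted mice the effect of HFD differed between the genotypes for Per2 and Cry2, 2 of 10 genes, against 4.96% of all genes (2.08% with a positive difference). HFD went with lower Per2 in hep+/+ mice (-0.29) and with a difference of 0.24 in hep-/- mice (adjusted p = 0.136), so that the diet effects differed by 0.53 ± 0.14 (adjusted p = 0.0206). For Cry2 the diet effects were -0.20 and 0.21 and differed by 0.41 ± 0.10 (adjusted p = 0.0118). The difference did not pass for Nr1d2 (0.36 ± 0.16, adjusted p = 0.192) or Per1 (0.33 ± 0.30, adjusted p = 0.574), so that their genotype effects in fasted mice were not shown to differ between the diets. The diet, genotype and interaction contrasts of fasted mice share the same 24 mice, and so are not separate lines of evidence. In the other 5 interaction contrasts no clock gene passed with limma (3.92%, 3.37%, 2.83%, 2.36% and 7.9% of all genes did), and 6 of 50 differences had an unadjusted p under 0.05. The nearest was the genotype difference in the fasting effect on HFD for Cry2 (0.32 ± 0.10, adjusted p = 0.0621), which passed without any 1 of 7 arrays, hep+/+ HFD fed replicates 3, 4 and 5, hep-/- CTRL fed replicate 5, hep-/- HFD fed replicates 3 and 6 and hep-/- HFD fasted replicate 1 (adjusted p 0.0287 to 0.0481). The other probes of Per2 (0.29, adjusted p = 0.379) and Cry2 (0.12 and 0.10, adjusted p = 0.613 and 0.730) had the same sign and no call in the genotype by diet contrast. The Per2 call there was lost without the filter on dim probes (0.53, adjusted p = 0.0536) and without array weights (0.53, adjusted p = 0.0519), and the Cry2 call with the median over probes (0.11, adjusted p = 0.620).

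**Figure D4:**
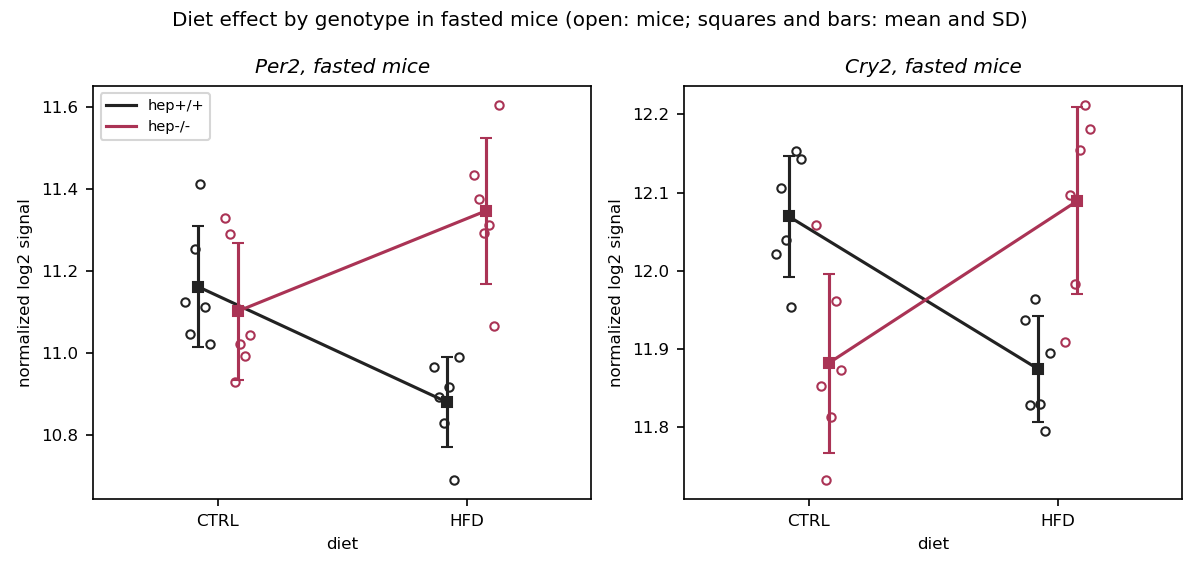
Normalized log2 signal of Per2 and Cry2 in fasted mice by diet and genotype; open circles are mice, squares with bars are the mean and SD of 6 mice. Mean Per2 goes from 11.16 on CTRL to 10.88 on HFD in p110α hep+/+ and from 11.10 to 11.35 in p110α hep-/- livers, and mean Cry2 from 12.07 to 11.87 and from 11.88 to 12.09.

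Markers of other liver cells moved in several of these comparisons. Of 3 neutrophil markers, S100a8 and S100a9 were higher on HFD in fasted hep+/+ mice (1.45 and 1.61) and lower in hep-/- than in hep+/+ fasted HFD mice (-1.29 and -1.52), while Ly6g passed in neither. Their summed log2 level was 10.41 to 11.70 in hep+/+ and 9.64 to 10.04 in hep-/- fasted HFD livers, and 2 of 3 were also called in the genotype by diet contrast. Other markers were called on HFD in fasted hep+/+ mice too, where 15.9% of all genes passed. Kupffer cell and macrophage markers gave 1 higher of 4, endothelial markers 1 lower of 4 and stellate cell markers 1 higher of 4. Lymphocyte markers gave 1 higher and 1 lower of 3. Of 4 endothelial markers, Pecam1, Stab2 and Kdr were higher in hep-/- fasted HFD livers (median of the 4, 0.37), with summed levels of 12.70 to 12.92 in hep+/+ and 13.04 to 13.26 in hep-/- mice, and of 4 cholangiocyte markers 3 were lower (median -0.38, summed 8.31 to 8.75 and 8.02 to 8.43). Of all genes, 36.8% passed between the genotypes in fasted HFD mice. Of the cholangiocyte markers, Krt7 and Epcam were dim, with median log2 signals of 5.76 and 5.46 over the arrays. They were well above background on only 28 and 18 arrays. No background was subtracted, so the sizes of their changes are not comparable with those of brighter genes. The counts and medians given for cholangiocyte markers rest partly on these dim probes. Kupffer cell and macrophage markers gave 1 higher and 1 lower of 4 in that comparison, stellate cell markers 1 higher of 4, and lymphocyte markers 1 higher of 3. Cholangiocyte markers were also lower in hep-/- mice in 2 (CTRL fed), 3 (CTRL fasted, where Cry2 was called) and 3 (HFD fed) of 4, with medians of -0.36, -0.34 and -0.49, and summed levels of 8.28 to 8.76 in hep+/+ and 7.88 to 8.30 in hep-/- CTRL fasted livers. In fed hep+/+ mice, where Per2 and Per3 were lower on HFD, S100a8 and S100a9 were higher on HFD (0.84 and 0.91), with a summed neutrophil level of 9.53 to 10.23 on CTRL and 9.95 to 11.97 on HFD, and 2 of 3 lymphocyte markers, Cd3e and Ptprc, were lower (-0.29 and -0.24), with summed levels of 11.25 to 11.63 and 11.07 to 11.41. The third lymphocyte marker, Nkg7, went the other way (0.35) without a call, so the lymphocyte markers did not move as a set. Endothelial and stellate cell markers each gave 1 higher of 4 there, where 24% of all genes passed. The part of these cells in the differences of Nr1d2, Per2, Per3, Per1 and Cry2 was not tested. In the fasting comparisons at most 2 markers of any of these lists passed, and cholangiocyte markers were lower in 2, 1, 2 and 0 of 4, where 32.5%, 28.4%, 35.4% and 28.5% of all genes passed. Some of these changes were as large as those of the clock genes. Krt19, a cholangiocyte keratin, fell by 1.05 in hep-/- CTRL mice. Its log2 signal was also low, from 5.36 to 7.90 over the arrays. The endothelial marker Lyve1 rose by 1.07 in hep-/- CTRL and 0.82 in hep-/- HFD mice. Their part in the fasting differences was not tested.

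The washing of the arrays was done in 2 batches that each held 3 mice of every group, and the batch was removed before the fit. All 30 calls on the clock genes had the same sign in both batches taken alone. The calls were made from both batches together, so this agreement was largely built in and is not replication. The fasting difference of Nr1d2 was 0.65 and 0.78 in hep+/+ CTRL, 0.76 and 0.45 in hep+/+ HFD, 0.71 and 0.72 in hep-/- CTRL and 0.92 and 0.83 in hep-/- HFD mice. The genotype by diet differences were 0.34 and 0.71 for Per2 and 0.34 and 0.46 for Cry2.

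Differences between mice of 1 group were examined next. After the group mean was subtracted, the 10 genes were compared in 45 pairs over the 48 mice, by permutation within groups (100000 draws, two-sided, Benjamini-Hochberg over the pairs). In all, 22 pairs passed, 10 positive and 12 negative, and 20 passed by Spearman's rho. The 22 pairs are those with an absolute r of 0.37 or more, 48.9% of the 45 pairs, and 6.94% of all pairs of the 20459 genes compared the same way reached that value. The strongest relation was between Arntl and Dbp, whose deviations were opposed (r = -0.90, rho = -0.85, adjusted permutation p = 0.000112 and 0.000150, from the smallest p of 1e-05 that the draws can give). It was negative in 8 of 8 groups (-0.97 to -0.50), stood at -0.93 and -0.83 in the washing batches, and at -0.87 without the 2 mice farthest from the median of Arntl. The 2 values of a pair come from the same array, so that whatever alters an array alters both.

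Arntl and Clock varied together (r = 0.75, rho = 0.64, adjusted permutation p = 0.000112 and 0.000300), positively in 8 of 8 groups, and Clock was opposed to Dbp (r = -0.78, rho = -0.71). Against them stood Nr1d1, Nr1d2, Per3 and Dbp, which were positively related in all 6 of their pairs, from 0.37 for Per3 and Nr1d2 to 0.62 for Per3 and Nr1d1. Within groups these 6 pairs had positive r in 8 of 8 groups each. Arntl was negatively related to each of these 4 genes and to Per2 (r from -0.90 to -0.40), and Clock to each of the 4 (r from -0.78 to -0.38).

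Cry1 passed with Arntl (0.54), Clock (0.58), Dbp (-0.54), Nr1d2 (-0.40) and Per3 (-0.38), but with 4 of these the relation was weak in the second washing batch (0.16, -0.21, -0.13 and -0.18 for Arntl, Dbp, Nr1d2 and Per3), and with Nr1d2 and Per3 it did not pass by Spearman's rho (adjusted permutation p = 0.0688 and 0.0790). Per2 passed with Arntl (-0.56) and Dbp (0.48). Per1 and Cry2 passed with 0 of 9 partners each, with r from -0.20 to 0.31. Among mice of a group, no relation of Per1 to Nr1d1, Nr1d2 or Dbp was detected (r = 0.05, 0.09 and 0.03).

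**Figure D5:**
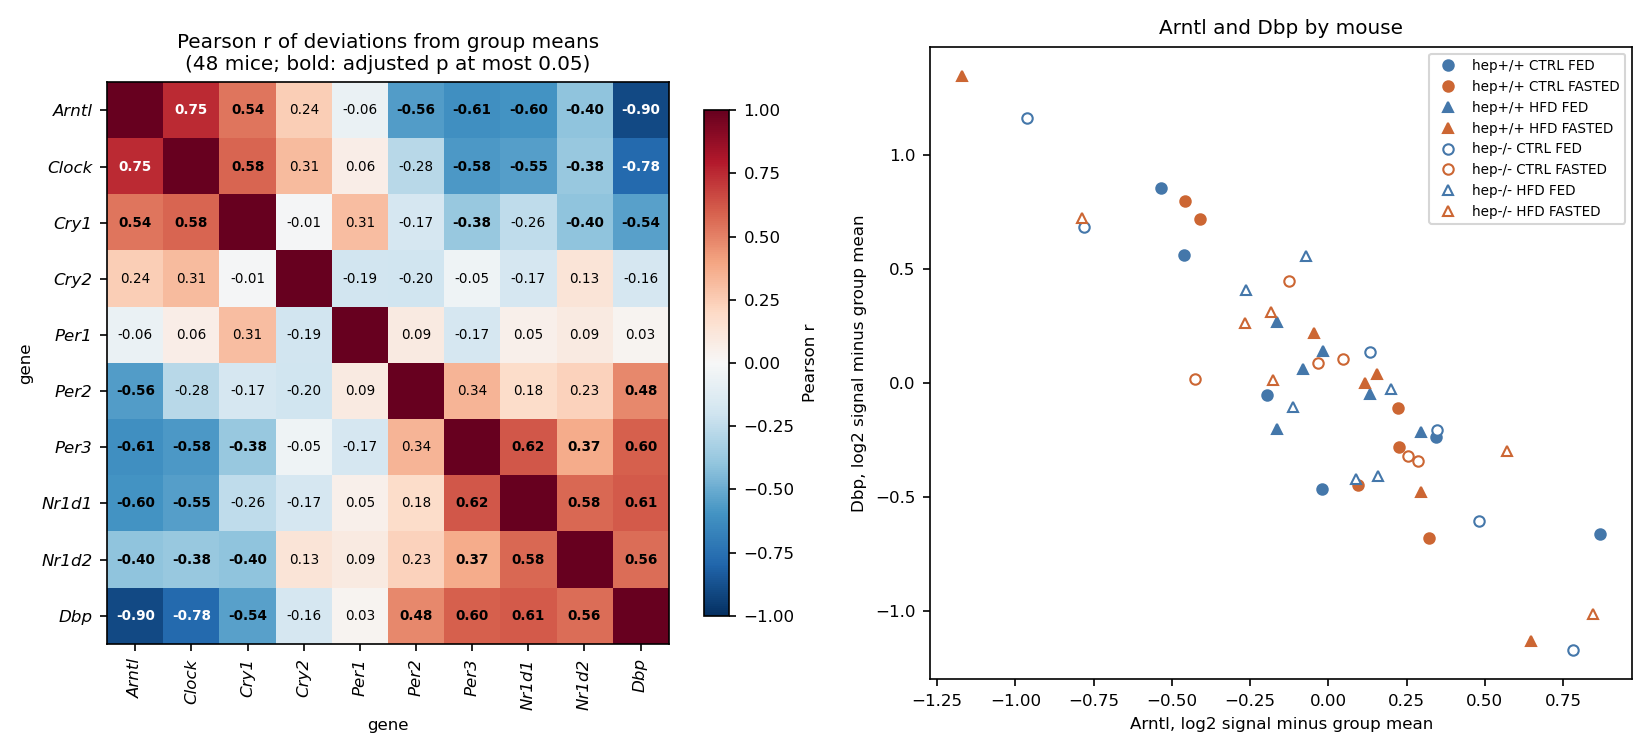
Left, Pearson r between the clock genes' deviations from their group means over 48 mice, in bold where the adjusted permutation p is at most 0.05. Right, the deviations of Arntl and Dbp in each mouse in log2 signal, which fall along a descending line (r = -0.90) that mice of all 8 groups share.

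Over all 48 arrays, groups included, the genes whose levels were most like each clock gene's were looked up among 20460 genes by Pearson's r, as a description in which group differences and single mice both count. Nr1d1 was most like Nr1d2 (r = 0.84), followed by Tns2 (0.83) and Wdr45 (0.81), and Nr1d2 was most like Kiz (0.89), Atg2a (0.88) and 2210408F21Rik (0.88). Dbp was most like Pcsk4 (0.87), Smarca2 (0.82) and Nosip (0.81). Of all genes, Arntl was the most opposed to Dbp and Dbp the most opposed to Arntl (-0.86). Arntl was most like AK038006 (0.81), Lonrf3 (0.78) and Dtx4 (0.76), and Clock was most like Cpeb4 (0.81), Pxmp4 (0.79) and 4930405O22Rik (0.79). Per1 was most like Yod1 (0.83), TC1574886 (0.82) and Slc38a2 (0.81), and Per2 was most like Kank2 (0.80), Ndufaf4 (0.80) and Zc3h8 (0.78). The closest genes reached lower values for Per3, Cry1 and Cry2, with Mpdz (0.67), Sh2b3 (0.66) and Dbp (0.64) for Per3, AK038006 (0.70), 1600002K03Rik (0.66) and Ttc37 (0.64) for Cry1, and Stk24 (0.65), Tet2 (0.63) and Cnot2 (0.61) for Cry2.

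Other transcription factors of the clock, 8 of 11 listed being measured above background, changed on fasting in 4 (hep+/+ CTRL), 3 (hep+/+ HFD), 5 (hep-/- CTRL) and 3 (hep-/- HFD) cases, with medians over the 8 from -0.00299 to 0.18, beside medians between -0.00108 and 0.00423 over all genes. Of these calls 2, 1, 3 and 1 were increases, and 32.5%, 28.4%, 35.4% and 28.5% of all genes passed in these comparisons. Bhlhe40, a repressor at E-boxes also called DEC1, fell in all 4 settings (-1.27, -0.95, -0.87 and -0.65). Ciart, a further repressor of the activator pair, rose in 3 (1.11, 1.66 and 1.97, against 0.67 in hep+/+ CTRL mice, adjusted p = 0.0970), and Nfil3, which competes with Dbp at D-boxes, rose in hep+/+ CTRL mice (0.64). On HFD, Hlf, a relative of Dbp, was lower in fed and Rora in fasted hep+/+ mice (-0.28 and -0.25), 1 of 8 in each state against 24% and 15.9% of all genes, and none of the 8 passed in hep-/- mice with limma, against 12.2% fed and 10.8% fasted. Between genotypes 1 of 8 passed in each of the 4 settings, below the shares of all genes (21.5%, 24.8%, 32.9% and 36.8%), among them Bhlhe40 (-0.56, CTRL fed), Nfil3 (0.52, HFD fed) and Rora (0.23, HFD fasted).

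Of 12 kinases and ubiquitin ligases or proteases that act on clock proteins, 5, 6, 3 and 1 changed on fasting in the same order, of which 3, 3, 2 and 1 rose, with medians from -0.00470 to 0.08. These counts stand beside 32.5%, 28.4%, 35.4% and 28.5% of all genes, and the last 2 of them, 3 and 1 of 12, are below that share. Usp2, a deubiquitinase, rose in all 4 settings (0.52, 1.00, 0.59 and 1.09). Prkaa2, a catalytic subunit of AMPK, fell in 3 (-0.30, -0.29 and -0.24), and Csnk2a1, a casein kinase subunit, rose on CTRL in both genotypes (0.26 and 0.29). On HFD 3 passed in fed hep+/+ mice, among them Usp2 (-0.56), Fbxw7 (0.20) and Fbxw11 (0.16), then 0, 0 and 1 (Csnk2a1, -0.19, hep-/- fasted), where 24%, 15.9%, 12.2% and 10.8% of all genes passed. Between genotypes 2, 1, 4 and 1 of 12 passed, against 21.5%, 24.8%, 32.9% and 36.8% of all genes, with Gsk3b at -0.29 (CTRL fed), Btrc at 0.26 (CTRL fasted) and, in fed HFD mice, Fbxl21 at 0.27 and Prkaa2 at -0.22.

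Genes of liver metabolism that follow the clock passed on fasting in 6, 8, 8 and 5 of 14, with 5, 6, 6 and 4 increases and medians from -0.02 to 0.28, where 32.5%, 28.4%, 35.4% and 28.5% of all genes passed. Por, the electron donor of microsomal P450 enzymes, rose in all 4 settings (1.03, 1.11, 1.08 and 1.01), and Alas1, the first enzyme of haem synthesis, rose in 3 (0.75, 0.76 and 0.98, against 0.46 in hep-/- HFD mice, adjusted p = 0.210). Cyp7a1, the rate-limiting enzyme of bile acid synthesis, fell in hep-/- CTRL mice (-1.75) and Elovl3, a fatty acid elongase, in hep-/- HFD mice (-1.58). HFD changed 3, 2, 3 and 4 of 14, against 24%, 15.9%, 12.2% and 10.8% of all genes, including Tfrc, the transferrin receptor, which rose in all 4 settings (1.47 to 2.15), Cyp7a1 (1.68) and Cyp2a5 (0.74) in fasted hep-/- mice, and Ccrn4l (0.41) in fed hep+/+ mice. Between genotypes 4, 4, 3 and 6 of 14 passed, against 21.5%, 24.8%, 32.9% and 36.8% of all genes, with Por higher in hep-/- mice in all 4 settings (0.41 to 0.74), Tspan4 higher in fed HFD mice (0.69), and Gys2 higher (0.74) and Elovl3 lower (-1.89) in fasted HFD mice.

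Of 12 genes that answer to glucocorticoids or temperature, cues that also reach the Per genes, 4, 7, 3 and 2 passed on fasting, with 3, 5, 3 and 2 increases and medians from -0.11 to 0.25, where 32.5%, 28.4%, 35.4% and 28.5% of all genes passed. Fkbp5, a glucocorticoid target, rose in all 4 settings (0.59, 1.25, 1.35 and 2.26), Zbtb16 rose in 3 (1.14, 1.83 and 1.68, against 0.66 in hep-/- CTRL mice) and Tat, a glucocorticoid-induced liver enzyme, in 3 (0.88, 0.60 and 0.68, against 0.62 in hep-/- HFD mice). Cirbp, a cold-inducible RNA-binding protein, rose in hep+/+ HFD mice (0.73). HFD changed 2, 0, 0 and 1 of 12 (24%, 15.9%, 12.2% and 10.8% of all genes), Fkbp5 (-0.56) and Sgk1 (0.38) in fed hep+/+ mice and Rbm3 (-0.31) in fasted hep-/- mice. Between genotypes 2, 2, 1 and 4 of 12 passed, against 21.5%, 24.8%, 32.9% and 36.8% of all genes, with Tat higher in CTRL fed mice (0.73) and, in fasted HFD mice, where Per1 was higher too, Fkbp5 (0.70) and the heat shock genes Hspa1b (0.90) and Hsph1 (0.80). Their part in the Per1 difference was not tested.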

How the data were processed

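Liver RNA of 48 mice was labelled with 1 dye and hybridised to Agilent arrays. The deposited scanner files, made by the authors with Feature Extraction 10.10.1.1, give spot intensity (median, mean and background-corrected) and quality flags, with probe positions on mm9, and the authors also deposited a table of normalized log2 values. From the intensities, log2 of the median signal was taken without background subtraction, outlier spots were set missing, spots of a probe were averaged, and a probe was kept if well above background on at least 5 of 6 arrays of a group. The washing batch was removed with limma's removeBatchEffect and arrays were quantile normalized, after the methods of the study. These values correlated with the deposited log2 values at 0.999997 or above on each array. Groups were taken from the sample labels. limma 3.58.1 (R 4.3.3) fitted 8 group means with array weights, 18 contrasts were tested, and Benjamini-Hochberg adjustment ran across the 30794 probes kept. A gene was read from the probe with the highest mean signal. Tested on simulated data for fasting in hep+/+ CTRL mice, where 200 of 20487 genes were moved by 1 log2 unit, the fit found 193 with 6 false calls. Of the clock gene calls only that of Dbp on fasting in hep-/- HFD mice (1.46) was larger than this shift. The share found therefore does not give the sensitivity for the smaller differences, or for comparisons without a call.

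The members and gene lists were chosen with earlier results of these data known. All 10 clock genes are named, plus the 3 genes most like each clock gene. From each list, for fasting, diet and genotype separately, the rule names at most the 4 genes with the largest change among those called. Some genes that this rule names are not reported here. Promoter windows are RefSeq's. Alternatives were another signal, background correction, scaling, filter, batch handling, weights, the deposited values, other probes, a subset of groups, a fold threshold and leaving out each array.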

Additional observations from a re-analysis of the deposited data

Results flagged for a closer look

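In 7 of 80 tests of a clock gene in a group of 6, 1 mouse lay apart from the other 5 by more than Dixon's limit, and chance alone gives about 1 in 20 such tests. Per1 was at 10.64 in hep+/+ HFD fed replicate 1, with the others at 11.64 to 12.22, and at 12.04 in hep-/- HFD fasted replicate 6, with the others at 12.61 to 12.90. Nr1d2 was at 8.83 in hep+/+ CTRL fed replicate 1 (others 9.37 to 9.64), and Per2 was at 11.15 in hep+/+ HFD fed replicate 3 (others 11.31 to 11.40). Per3 was at 7.58 in hep-/- CTRL fed replicate 6 (others 8.15 to 8.43), and Cry1 was at 6.66 in hep+/+ HFD fasted replicate 1 (others 7.13 to 7.30). Cry2 was at 12.27 in hep-/- CTRL fed replicate 5 (others 11.68 to 11.85).

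The effect of HFD in fasted mice differed between the genotypes by an interaction test in limma for 2 genes, by 0.53 for Per2 (adjusted p = 0.0206) and by 0.41 for Cry2 (adjusted p = 0.0118). The Per2 call was lost without the filter on dim probes (adjusted p = 0.0536) or without array weights (adjusted p = 0.0519), the Cry2 call was lost with the median over probes (0.11, adjusted p = 0.620), and no other probe of either gene passed.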

How the results depend on the processing

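The 30 calls were recomputed under 13 alternatives, 388 values in all, of which 363 kept the sign and the side of the threshold, 25 kept the sign but no longer passed, and 0 changed sign. Of the 30 calls, 19 passed under all of these 13 that could be run, which do not include the fold threshold or leaving out an array. Calls were lost most often without the filter on dim probes (7) and with the median over a gene's probes (7), then without array weights (5), without removal of the washing batch (3) and with normexp background correction (2). The 19 fasting calls became 12 when a fold over 1.5 was also asked for. The 4 HFD calls became 2 without the filter, 2 without array weights and 0 with the fold threshold. The 5 genotype calls became 3 without the filter, 3 without batch removal, 3 with the median over probes and 0 with the fold threshold. The 2 interactions became 1 without the filter, 1 without weights, 1 with the median over probes and 0 with the fold threshold. Without the filter more probes are tested; the other causes were not tested.

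Leaving out each array in turn gave 18 to 20 fasting calls, 2 to 7 HFD calls, 3 to 5 genotype calls and 2 to 3 interactions. The 7 came without hep+/+ CTRL fed replicate 1, the 2 HFD calls without hep+/+ CTRL fasted replicate 3 or hep+/+ HFD fasted replicate 5, and the 3 genotype calls without hep-/- HFD fasted replicate 5. The number of related pairs was 21 to 23 with other signals or with the slide removed.

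The replicate numbers are shared by the groups, but same-numbered mice did not deviate together (mean r 0.0189 over 168 pairs, against -0.00364 over 840 others). With the number as a replicate block there were 19 fasting, 3 HFD and 5 genotype calls and 2 interactions, and 1 of the 30 calls was lost, Cry2 on HFD in fasted hep+/+ mice (-0.19, adjusted p = 0.0577).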
